A study of Mus musculus with 16 samples.

Results

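The genes described here are 10 that mark macrophages or mast cells, followed in the ventricles of mouse embryos with hypoplastic left heart syndrome (HLHS), a malformation in which the left ventricle stays small. They were taken from the deposited table by their Ensembl identifiers, and all 10 were found among its 37991 genes: F13a1, Mrc1, Cd163, Csf1r, Lyve1, Cx3cr1 and Adgre1 for macrophages, and Cpa3, Cma1 and Kit for mast cells. The study sequenced RNA of the left ventricle (LV) and the right ventricle (RV) of 8 embryos of the C57BL/6 background, giving 16 libraries. The HLHS embryos were 3, taken at embryonic day E13.5, E14.5 or E17.5 from 3 litters. Their 5 littermate controls, which lacked the malformation, were 1 embryo of the E13.5 litter and 2 of each later one. Stage and litter are therefore 1 variable. The labels give the phenotype and no genotype, so an allele that the controls share with the HLHS embryos is not known here.

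Macrophages enter the embryonic heart from the yolk sac and later from the fetal liver, and their survival depends on the receptor that Csf1r encodes. Those that carry Mrc1, Cd163, Lyve1 and F13a1 are the tissue-resident kind that clears debris and lies along vessels and nerves. Mast cells arrive as progenitors that carry the receptor Kit and mature in the tissue, where they fill their granules with proteases such as the products of Cpa3 and Cma1, with histamine and with serotonin.

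The promoters of 4 genes are shown because these were the members called between HLHS and control hearts and form pairs that moved together, F13a1 with Mrc1 and Cpa3 with Cma1. Windows from 250 bases before to 50 bases after the start came from RefSeq on GRCm38.p6, which is not the build of the counts, and were matched by symbol. Windows of 7 of the 10 members were used. None was used for Csf1r, Lyve1 or Adgre1, so their promoters are not described. Capitals mark letters of a core motif of PU.1, the master transcription factor of macrophages (GAGGAA, or TTCCTC on the other strand), or of the GATA factors that act in mast cells (AGATAA, or TTATCT). The motifs do not overlap each other, and their matches describe letters, not bound sites. F13a1 had 2 windows, 1 for each of its annotated starts, at chr13:37050195-37050494 and chr13:37049164-37049463 on the minus strand; that of Mrc1 is chr2:14229164-14229463 on the plus strand, and those of Cpa3 and Cma1 are chr3:20242132-20242431 and chr14:55944626-55944925 on the minus strand.
F13a1 first window: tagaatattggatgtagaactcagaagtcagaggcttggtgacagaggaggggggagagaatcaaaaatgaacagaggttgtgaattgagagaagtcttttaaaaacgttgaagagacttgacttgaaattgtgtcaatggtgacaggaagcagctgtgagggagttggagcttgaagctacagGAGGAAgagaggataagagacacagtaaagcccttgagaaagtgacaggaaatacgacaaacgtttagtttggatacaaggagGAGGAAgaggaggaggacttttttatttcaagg
F13a1 second window: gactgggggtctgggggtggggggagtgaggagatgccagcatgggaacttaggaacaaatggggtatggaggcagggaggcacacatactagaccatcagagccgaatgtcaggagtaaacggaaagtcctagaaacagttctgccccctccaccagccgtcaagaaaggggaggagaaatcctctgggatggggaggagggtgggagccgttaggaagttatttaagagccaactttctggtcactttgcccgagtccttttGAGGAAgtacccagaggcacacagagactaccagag
Mrc1: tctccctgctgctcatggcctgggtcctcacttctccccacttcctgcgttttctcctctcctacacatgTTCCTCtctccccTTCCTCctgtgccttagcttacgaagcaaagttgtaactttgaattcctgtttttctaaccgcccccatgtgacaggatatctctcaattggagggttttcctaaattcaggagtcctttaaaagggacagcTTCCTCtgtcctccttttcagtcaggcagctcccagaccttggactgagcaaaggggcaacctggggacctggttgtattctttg
Cpa3: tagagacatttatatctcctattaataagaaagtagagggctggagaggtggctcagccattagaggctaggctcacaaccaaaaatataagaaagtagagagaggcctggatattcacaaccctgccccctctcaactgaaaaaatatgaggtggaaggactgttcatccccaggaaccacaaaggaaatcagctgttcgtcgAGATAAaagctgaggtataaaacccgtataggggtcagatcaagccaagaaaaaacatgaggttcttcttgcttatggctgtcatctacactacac
Cma1: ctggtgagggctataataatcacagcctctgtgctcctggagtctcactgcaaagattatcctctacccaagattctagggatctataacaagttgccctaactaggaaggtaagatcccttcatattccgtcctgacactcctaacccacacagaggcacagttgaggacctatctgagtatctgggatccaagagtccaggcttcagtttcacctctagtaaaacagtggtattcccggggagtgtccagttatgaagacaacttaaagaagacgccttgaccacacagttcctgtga
The first F13a1 window held the PU.1 core 66 bases before the start and at base 18 after it, and the second held it at base 15. The Mrc1 window held it 180, 167 and 35 bases before the start, each time on the other strand. The Cpa3 window held the GATA core 46 bases before the start, and the Cma1 window held neither. Among all 32851 RefSeq windows, 28.3% held the PU.1 core and 11.2% the GATA core. The windows of Cd163 and Cx3cr1 held neither core, and both windows of Kit, whose starts are 4 bases apart, held 1 PU.1 core.

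The libraries held 17081273 to 28648645 counts each, and levels are normalised read counts scaled to library size (CPM). Heart muscle RNA was present throughout, with Tnnt2, cardiac troponin T, at 2213 to 3993 CPM. Hand1, a transcription factor of the left ventricle, lay between 10.1 and 38.3 CPM in LV libraries and between 2.00 and 6.97 CPM in RV libraries, so the sides were as labelled. None of the 5 libraries of either control group stood apart from the other 4 for a member.

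Member genes spanned a wide range of levels. Per kilobase of exon, Csf1r was at 5.65 ± 2.08 CPM per kb in control LV (SD, n = 5), beside Lyve1 at 5.43 ± 4.01, Cpa3 at 4.71 ± 2.70, Cma1 at 3.89 ± 3.18 and Kit at 3.19 ± 0.48 CPM per kb. Mrc1 followed at 2.53 ± 0.36, Adgre1 at 2.18 ± 0.65, Cx3cr1 at 2.10 ± 0.44, F13a1 at 1.89 ± 0.46 and Cd163 at 0.11 ± 0.09 CPM per kb. Neighbours in this order differed by less than the larger of their SDs, which span stages, apart from Kit and Mrc1 and from F13a1 and Cd163. The counts of Cd163, the haemoglobin scavenger receptor gene, ran from 0 to 54 reads per library. The 1 library at 0, control LV at E13.5, allows up to 0.161 CPM (3 reads, counting error only).

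With both ventricles of an embryo added, the macrophage transglutaminase gene F13a1 rose and the mast cell protease genes Cpa3 and Cma1 fell in HLHS hearts. On each side and in every litter the HLHS library lay above its controls for F13a1 and below them for Cpa3 and Cma1. These genes were called with the ventricles added, so this order adds no support, and its share over all genes was not counted. At E13.5 the order of Cma1 rested on few reads, 4 in HLHS LV against 9 in control LV and 4 in HLHS RV against 6 in control RV. F13a1 was 2.13-fold higher in the HLHS right ventricle than in that of littermates. Cma1 was 8.92-fold lower in the HLHS right ventricle and 5.90-fold lower in the HLHS left ventricle. In tissue RNA, fewer cells of a type and less RNA per cell cannot be told apart.

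Of the 10 members, all of which were tested, 0 were higher and 2 lower in HLHS LV, where 12.8% of all 15979 genes were called in either direction (6.17% higher, 6.61% lower). In HLHS RV 2 were higher and 2 lower, against 6.61% of 16142 genes called (3.56% higher, 3.05% lower). With the ventricles added, 2 were higher and 2 lower, against 13.8% of 17429 genes (6.85% higher, 6.93% lower). In the LV, 1 member was higher and 3 were lower at an unadjusted p under 0.05, and DESeq2 called 1 higher and 2 lower. The LV share is near the background, while 4 of 10 in the RV is above it. The members were chosen with earlier results of these data known, so these shares describe the list and test nothing. The median log2 change of the members was -0.28 in the LV, 0.37 in the RV and 0.05 with the ventricles added, where that of all genes was 0.01, 0.01 and 0.00. Left and right ventricles come from the same embryos, so these 3 comparisons are not independent.

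**Figure D1:**
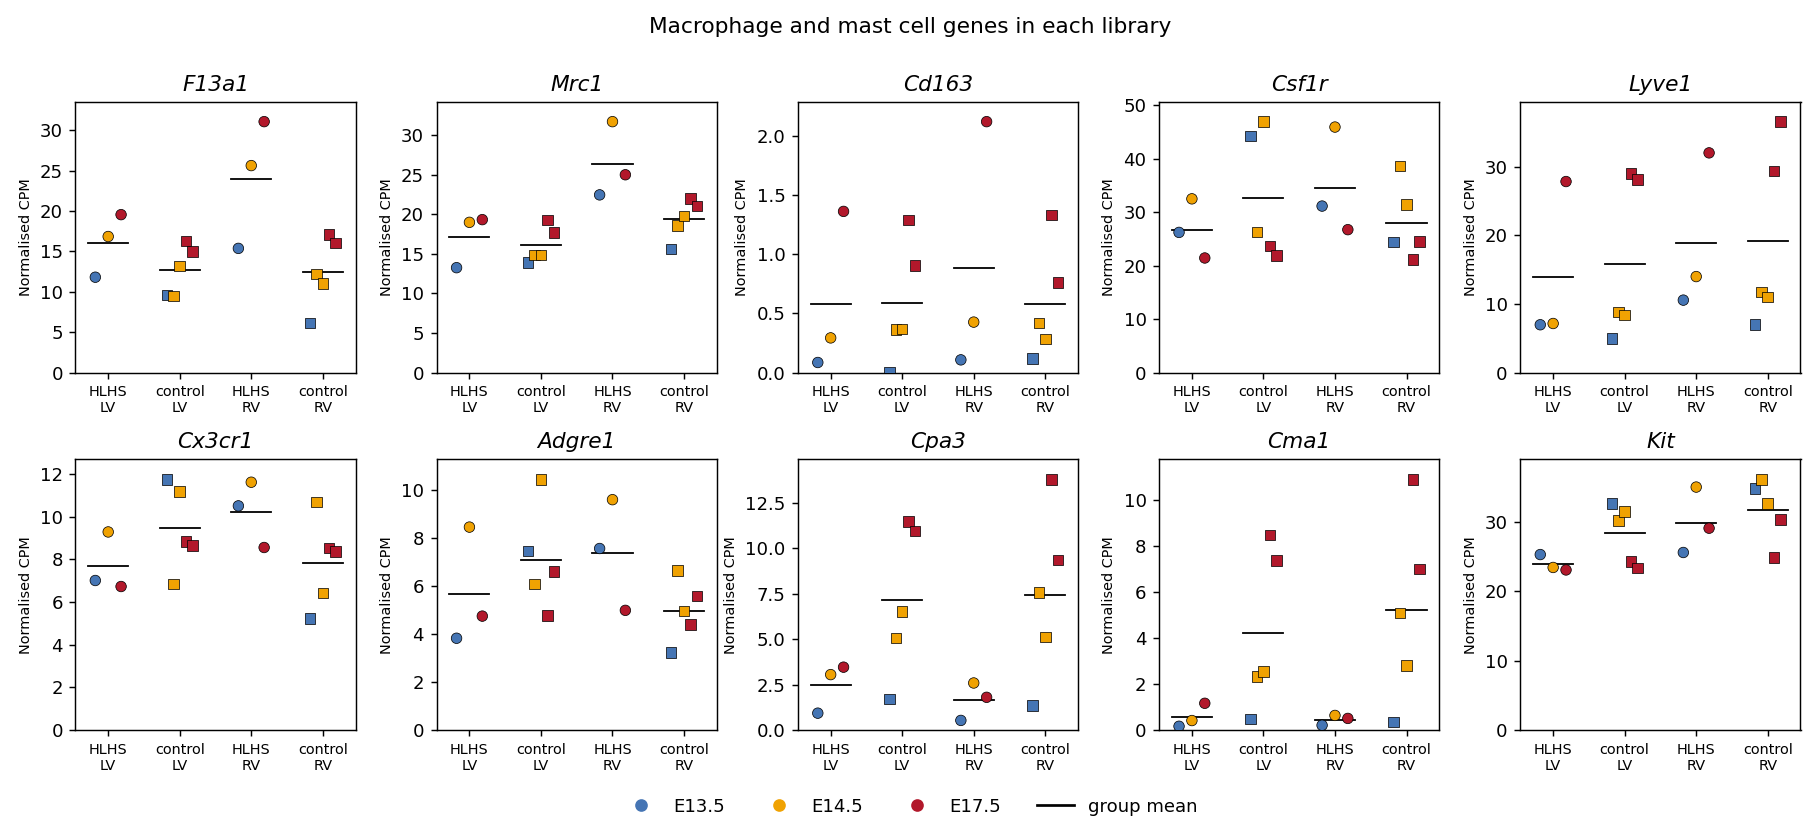
Level of each of the 10 genes in every library, in normalised CPM (y axis), for HLHS and control embryos in the left (LV) and right (RV) ventricle (x axis). Circles are HLHS and squares control libraries, colours give the embryonic day and lines the group mean. Within each colour the HLHS points of Cpa3 and Cma1 lie under the control points of the same ventricle, and those of F13a1 lie over them.

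F13a1 encodes the catalytic subunit of coagulation factor XIII, which cross-links fibrin and is made by resident macrophages and by megakaryocytes. Its level in HLHS RV was 15.4, 25.6 and 31.1 CPM at E13.5, E14.5 and E17.5, against 6.16 CPM at E13.5, 12.2 and 11.0 CPM at E14.5 and 17.1 and 16.0 CPM at E17.5 in control RV. At each stage the HLHS library was above every control, and the HLHS library of E13.5 was above both controls of E14.5. The change was 1.09 ± 0.10 on the log2 scale (the SE; adjusted p = 0.00159 by quasi-likelihood in edgeR, fitted with a stage term to 3 HLHS and 5 control libraries).

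In the left ventricle the difference in F13a1 was smaller. HLHS LV had 11.8, 16.8 and 19.6 CPM at the 3 stages, against 9.60 CPM at E13.5, 9.46 and 13.2 CPM at E14.5 and 16.3 and 15.02 CPM at E17.5 in control LV. All 3 HLHS libraries were above their littermates, and the log2 difference of 0.41 ± 0.12 did not pass the threshold of 0.05 (adjusted p = 0.0545, edgeR). With both ventricles of an embryo added, F13a1 rose by 0.76 ± 0.08 on the log2 scale (adjusted p = 0.000976, edgeR, 8 embryos). F13a1 spans 2 genes on the other strand in the GENCODE annotation, and the library kit does not mark strand, so their reads cannot be told apart from its own.

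Of markers of megakaryocytes, the other source of F13a1, 1 of 7 tested was higher in HLHS LV (Ppbp, log2 2.10 ± 0.46, adjusted p = 0.0182, edgeR) and 0 of 7 in HLHS RV. At an unadjusted p under 0.05 in edgeR, Pf4 and Ppbp were higher in HLHS LV and with the ventricles added. At that threshold Pf4 alone was higher in HLHS RV, and 0 were lower in each comparison. The summed level of the 8 listed was 12.9 to 18.6 CPM in HLHS LV and 11.5 to 16.3 CPM in control LV. It was 11.6 to 15.8 CPM in HLHS RV and 13.3 to 14.49 CPM in control RV. On the right side, where F13a1 passed, the lowest and highest summed levels of that list were both HLHS libraries. The part of megakaryocytes in the level of F13a1 was not tested.

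Mrc1 encodes the macrophage mannose receptor, which takes up glycoproteins. HLHS RV had 22.5, 31.7 and 25.0 CPM at E13.5, E14.5 and E17.5, against 15.6 CPM at E13.5, 18.6 and 19.8 CPM at E14.5 and 22.0 and 21.0 CPM at E17.5 in control RV. The 2 groups did not overlap even across stages, and Mrc1 rose by 0.49 ± 0.10 on the log2 scale (adjusted p = 0.0255, edgeR). In HLHS LV the level was 13.3, 19.0 and 19.3 CPM, against 13.9 CPM at E13.5, 14.9 and 14.9 CPM at E14.5 and 19.3 and 17.7 CPM at E17.5 in control LV, a log2 difference of 0.14 ± 0.10 that did not pass (adjusted p = 0.378). The RV call rests on few libraries, since it was lost without HLHS RV at E13.5 or control RV at E13.5 (adjusted p = 0.103 each), HLHS RV at E14.5 (0.152), control RV replicate 3 (0.0735) or control RV replicate 5 (0.0563).

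Csf1r encodes the receptor for the macrophage growth factors CSF1 and interleukin 34. Its level in HLHS LV was 26.2, 32.5 and 21.4 CPM at the 3 stages, against 44.3 CPM at E13.5, 26.2 and 46.9 CPM at E14.5 and 23.7 and 21.9 CPM at E17.5 in control LV. In HLHS RV it was 31.1, 45.9 and 26.7 CPM, against 24.4 CPM at E13.5, 38.6 and 31.4 CPM at E14.5 and 21.1 and 24.5 CPM at E17.5 in control RV. HLHS libraries were thus above their littermates in the RV at each stage, and below the mean of their littermates in the LV, with 1 of 3 inside the range of the controls. The log2 differences of -0.30 ± 0.18 in the LV (adjusted p = 0.308, edgeR) and 0.32 ± 0.09 in the RV (adjusted p = 0.0654) did not pass. Csf1r shares part of its span with Hmgxb3 on the other strand, whose reads cannot be told apart from it.

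Cx3cr1, the fractalkine receptor gene, and Adgre1, an adhesion receptor gene of mature mouse macrophages, had the same pattern of signs as Csf1r; the span of Cx3cr1 in the GENCODE annotation overlaps 9 other genes, whose reads may mix with its own. Cx3cr1 lay between 6.73 and 9.28 CPM in HLHS LV and between 6.84 and 11.7 CPM in control LV, a log2 difference of -0.32 ± 0.18 that did not pass (adjusted p = 0.285, edgeR). In HLHS RV it lay between 8.55 and 11.6 CPM and in control RV between 5.22 and 10.7 CPM, with a log2 difference of 0.42 ± 0.20 (adjusted p = 0.23). The ranges overlapped on both sides. Adgre1 lay between 3.82 and 8.45 CPM in HLHS LV and between 4.77 and 10.4 CPM in control LV, with a log2 difference of -0.32 ± 0.22 (adjusted p = 0.384). In HLHS RV its range was 4.98 to 9.59 CPM and in control RV 3.22 to 6.64 CPM, with a log2 difference of 0.59 ± 0.21 that did not pass either (adjusted p = 0.121).

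The scavenger receptor gene Cd163 and the hyaluronan receptor gene Lyve1 varied with stage far more than with phenotype. Lyve1 was at 6.97, 7.15 and 27.8 CPM in HLHS LV at the 3 stages, against 4.94 CPM at E13.5, 8.81 and 8.39 CPM at E14.5 and 29.0 and 28.1 CPM at E17.5 in control LV. In HLHS RV it was at 10.6, 13.99 and 32.0 CPM, against 7.04 CPM at E13.5, 11.7 and 11.0 CPM at E14.5 and 29.4 and 36.6 CPM at E17.5 in control RV. HLHS libraries lay on either side of their littermates, with log2 differences of 0.00 ± 0.12 in the LV (adjusted p = 0.992, edgeR) and 0.22 ± 0.12 in the RV (adjusted p = 0.311). Cd163 had log2 differences of 0.20 ± 0.37 in the LV and 0.72 ± 0.33 in the RV, which did not pass (adjusted p = 0.766 and 0.217).

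Among the mast cell genes, Cpa3, which encodes the granule carboxypeptidase, fell on both sides. HLHS LV had 0.935, 3.05 and 3.46 CPM at E13.5, E14.5 and E17.5, against 1.72 CPM at E13.5, 5.07 and 6.52 CPM at E14.5 and 11.5 and 10.9 CPM at E17.5 in control LV. HLHS RV had 0.536, 2.59 and 1.81 CPM, against 1.35 CPM at E13.5, 7.55 and 5.12 CPM at E14.5 and 13.8 and 9.35 CPM at E17.5 in control RV. No HLHS library reached any of its littermates, and at E17.5 the 2 HLHS libraries were under every control library of E14.5. Cpa3 fell by 1.25 ± 0.19 on the log2 scale in the LV (adjusted p = 0.00446) and fell by 1.87 ± 0.31 in the RV (adjusted p = 0.012, edgeR).

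Cma1, which encodes a granule chymase, moved with Cpa3 and further. HLHS LV had 0.17, 0.418 and 1.17 CPM at the 3 stages, against 0.483 CPM at E13.5, 2.33 and 2.54 CPM at E14.5 and 8.47 and 7.35 CPM at E17.5 in control LV. HLHS RV had 0.214, 0.639 and 0.51 CPM, against 0.352 CPM at E13.5, 5.07 and 2.80 CPM at E14.5 and 10.9 and 6.99 CPM at E17.5 in control RV. In reads, the HLHS libraries held 4 to 30 and the control libraries 6 to 278. Cma1 fell by 2.56 ± 0.23 on the log2 scale in the LV (adjusted p = 0.000451) and fell by 3.16 ± 0.46 in the RV (adjusted p = 0.0077, edgeR). Without the E17.5 HLHS embryo the RV calls were lost for Cpa3 (log2 -1.29, adjusted p = 0.0599) and Cma1 (log2 -2.33, adjusted p = 0.0541), while both LV calls held without any 1 library.

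Kit encodes the receptor for stem cell factor, which mast cells need and which melanocytes, blood progenitors and some cells of the vessel wall also carry. Its level in HLHS LV was 25.3, 23.5 and 23.1 CPM at the 3 stages, against 32.7 CPM at E13.5, 30.2 and 31.5 CPM at E14.5 and 24.3 and 23.3 CPM at E17.5 in control LV. HLHS RV had 25.6, 35.0 and 29.1 CPM, against 34.8 CPM at E13.5, 36.2 and 32.6 CPM at E14.5 and 24.9 and 30.3 CPM at E17.5 in control RV. Kit was below its littermates in 4 of 6 litters and sides and within them in the other 2. The log2 differences of -0.26 ± 0.08 in the LV and -0.08 ± 0.11 in the RV did not pass (adjusted p = 0.0676 and 0.718, edgeR). Kit did not follow Cpa3 and Cma1, whose levels were lowest at E13.5, where Kit in controls was at 32.7 CPM in the LV and 34.8 CPM in the RV.

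**Figure D2:**
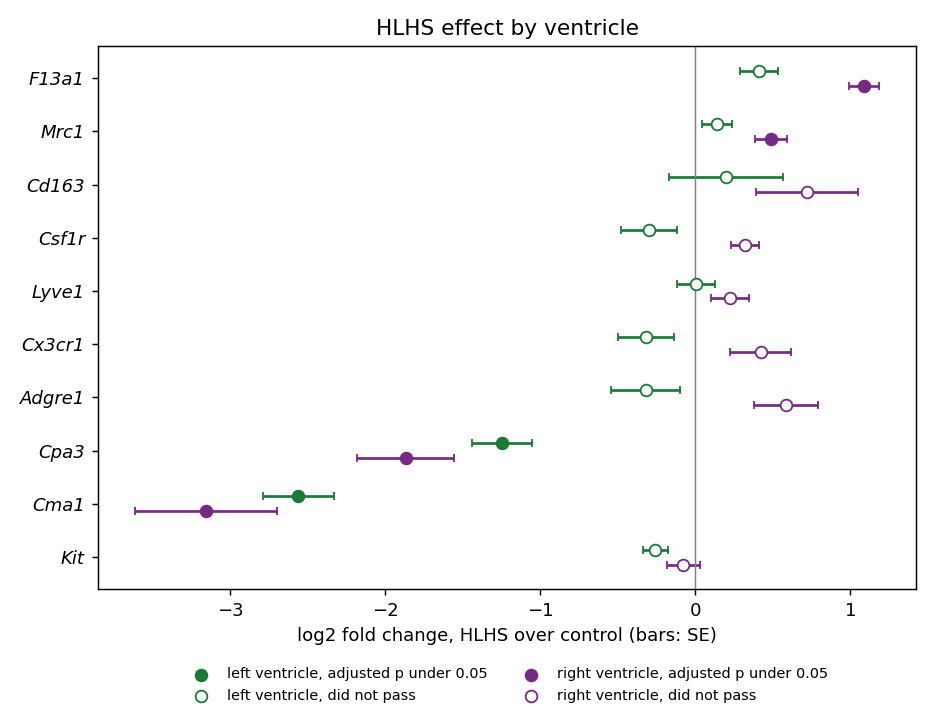
Log2 fold change of HLHS over control for each of the 10 genes (rows), in the left ventricle (green) and the right ventricle (purple), with the SE as bars; filled points passed the adjusted p of 0.05 in edgeR. Cpa3 and Cma1 lie left of 0 on both sides, F13a1 and Mrc1 lie right of 0 with filled points in the right ventricle, and every macrophage gene has its right ventricle point to the right of its left ventricle point.

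Genes of these cells outside the 10 members were read from lists. Of 18 further mast cell genes, 11 were tested in the LV, where 0 were higher and 2 lower in HLHS (median log2 change -0.24), and 14 in the RV, where 0 were higher and 5 lower (median -0.74); at an unadjusted p under 0.05, 0 were higher and 4 lower in the LV and 1 higher and 7 lower in the RV (edgeR). Tpsb2, a granule tryptase gene, had 0, 2 and 42 reads in HLHS LV at the 3 stages, against 0 at E13.5, 51 and 94 at E14.5 and 307 and 244 at E17.5 in control LV. In HLHS RV it had 0, 1 and 41 reads, against 0 at E13.5, 101 and 79 at E14.5 and 421 and 230 at E17.5 in control RV. It was at 0 in all 4 libraries of E13.5, which allows at most 0.176 CPM, and was under every littermate at both later stages. Tpsb2 fell by 3.13 ± 0.37 in the LV (adjusted p = 0.00226) and fell by 3.48 ± 0.48 in the RV (adjusted p = 0.00782, edgeR) on the log2 scale. Its neighbour Tpsab1, a related tryptase gene, was also called lower in the RV (adjusted p = 0.0433, edgeR), and sharing of reads between them was not tested. Other genes of the list did not fall on both sides, and none of these passed. Alox5 had log2 differences of -0.03 ± 0.13 in the LV and 0.59 ± 0.16 in the RV (adjusted p = 0.0608, edgeR). Those of Slc18a2 were 0.20 ± 0.12 and 0.07 ± 0.13, of Hpgds -0.30 ± 0.23 and 0.51 ± 0.28, and of Srgn 0.15 ± 0.22 and -0.37 ± 0.19. With the ventricles added, Slc18a2 in HLHS was above every littermate control at each stage.

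Hdc, the enzyme gene of histamine synthesis, had 2.55, 4.18 and 9.49 CPM in HLHS LV at the 3 stages, against 5.58 CPM at E13.5, 7.205 and 11.6 CPM at E14.5 and 11.0 and 11.3 CPM at E17.5 in control LV. In HLHS RV it had 3.00, 6.53 and 7.18 CPM, against 10.03 CPM at E13.5, 10.9 and 13.2 CPM at E14.5 and 14.3 and 14.4 CPM at E17.5 in control RV. Every HLHS library was under its littermates, and Hdc fell by 0.76 ± 0.22 in the LV (adjusted p = 0.0478) and fell by 1.12 ± 0.15 in the RV (adjusted p = 0.00676, edgeR). In the RV, Il1rl1, the interleukin 33 receptor gene, fell by 1.16 ± 0.29 (adjusted p = 0.0416). Tph1, the enzyme gene of serotonin synthesis in mast cells, was called lower too (adjusted p = 0.0174) on 0, 1 and 0 reads in HLHS RV, against 3, 8, 6, 17 and 11 in control RV. Gata2 and Mitf, transcription factor genes that other cells of the heart also use, did not pass on either side (Gata2 log2 -0.08 ± 0.09 in the LV and 0.09 ± 0.10 in the RV; Mitf at 54.5 to 117 CPM), though Mitf fell by 0.22 ± 0.06 with the ventricles added (adjusted p = 0.0298).

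Of 30 further macrophage genes, 28 were tested on each side. In the LV 0 were higher and 0 lower in HLHS in edgeR, with a median log2 change of -0.19, and 2 were higher and 1 lower at an unadjusted p under 0.05. In the RV 1 was higher and 0 lower, with a median of 0.19. The 1 gene was Dab2, an endocytic adaptor of resident macrophages that is also made by other cells, which rose by 0.57 ± 0.08 (adjusted p = 0.00676, edgeR). Its level in HLHS RV was 98.8, 95.9 and 67.6 CPM at the 3 stages, against 59.3 CPM at E13.5, 75.7 and 63.0 CPM at E14.5 and 44.0 and 47.5 CPM at E17.5 in control RV. Summed over the list, the level was 384 to 413 CPM in HLHS LV and 316 to 544 CPM in control LV. It was 432 to 517 CPM in HLHS RV and 349 to 482 CPM in control RV, so the groups overlapped on both sides. Stab1, at 91.9 to 190 CPM per library, and Dab2, at 40.6 to 98.8 CPM, had the highest counts of the list and weigh most in these sums.

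Of 7 genes of ligands that draw or feed these cells, Cxcl12, a chemokine gene, rose by 0.58 ± 0.06 in HLHS LV (adjusted p = 0.000951) and rose by 0.50 ± 0.07 in HLHS RV (adjusted p = 0.00685, edgeR). It had 246, 245 and 201 CPM in HLHS LV at the 3 stages, against 180 CPM at E13.5, 144 and 159 CPM at E14.5 and 138 and 136 CPM at E17.5 in control LV. Ccl2, a monocyte-attracting chemokine gene, rose by 1.11 ± 0.24 in HLHS LV (adjusted p = 0.0171). Kitl, which encodes the ligand of Kit, had log2 differences of -0.30 ± 0.11 in the LV and -0.08 ± 0.07 in the RV that did not pass (adjusted p = 0.0927 and 0.518). Csf1, a ligand of the Csf1r product, had 0.20 ± 0.13 and 0.38 ± 0.13 (adjusted p = 0.333 and 0.121).

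Markers of blood and of epicardium and fibroblasts also differed. Of 8 red cell genes tested in HLHS LV, 7 were higher, with a summed level of 216 to 488 CPM in HLHS LV and 130 to 299 CPM in control LV, while 0 of 9 were called in the RV (162 to 276 CPM in HLHS RV and 136 to 303 CPM in control RV). Neutrophil genes were rare, at 3.99 to 22.6 CPM in sum in HLHS LV and 2.36 to 13.01 CPM in control LV, and at 0.375 to 3.61 CPM in HLHS RV and 1.06 to 11.3 CPM in control RV. Of these, S100a8 and Mpo were higher in HLHS LV, and S100a8 was lower in HLHS RV. Lymphocyte markers summed to at most 2.24 CPM in any library, with Cd3e and Ms4a1 at 0 in 14 libraries each. Of 9 epicardial and fibroblast genes tested on each side, 0 were higher and 3 lower in HLHS LV (Tcf21, Postn and Dcn), with a median log2 change of -0.27. In HLHS RV 0 were called in edgeR, with a median of 0.31, and 5 were higher and 0 lower at an unadjusted p under 0.05. The difference of their HLHS effects (left minus right) had a median of -0.61, the same sign as in the macrophage members, and 0 of 9 passed in it, with 5 lower at an unadjusted p under 0.05. Their summed level was 1633 to 2071 CPM in HLHS LV and 1930 to 2608 CPM in control LV, and 2268 to 3496 CPM in HLHS RV and 1461 to 2964 CPM in control RV. The part of blood cells and of these cells in the levels of the members was not tested.

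The HLHS effects on the left and on the right were compared in 1 fit with the embryo as a block. No member passed in edgeR or in DESeq2, though 1 had a higher and 3 a lower value at an unadjusted p under 0.05, and over all 16508 genes 3 passed (0.0182%). All 7 macrophage genes and Kit had a smaller log2 HLHS effect in the left than in the right ventricle, with differences of effect (left minus right) from -0.15 ± 0.13 for Kit and -0.24 ± 0.17 for Lyve1 to -0.68 ± 0.32 for Cx3cr1 and -0.88 ± 0.32 for Adgre1. F13a1 had -0.60 ± 0.18 (adjusted p = 0.288, edgeR) and Csf1r -0.53 ± 0.25 (adjusted p = 0.608). Cpa3 and Cma1 had positive values of 0.63 ± 0.29 and 0.63 ± 0.49 (adjusted p = 0.567 and 0.85). The median over the members was -0.44, against -0.01 over all genes. So although F13a1 and Mrc1 were called in the right ventricle alone, a difference between the sides was not shown.

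Within single HLHS embryos, F13a1 and Mrc1 were lower in the left than in the right ventricle. In all 3 HLHS embryos each of the 7 macrophage genes and Kit was lower in the left ventricle. How many of all genes did so was not counted. The 28 other macrophage genes tested had a median log2 change of 0.03. Of these, 4 were higher and 3 lower in the left at an unadjusted p under 0.05 (edgeR). F13a1 was at 11.8 CPM in the LV and 15.4 CPM in the RV of the E13.5 embryo, at 16.8 CPM and 25.6 CPM in those of the E14.5 embryo, and at 19.6 CPM and 31.1 CPM in those of the E17.5 embryo, a log2 change of -0.54 ± 0.11 (adjusted p = 0.0312, edgeR with the embryo as a block). Mrc1 had a log2 change of -0.60 ± 0.12 (adjusted p = 0.0257). These 2 of 10 members compare with 4.04% of 15771 genes called (1.15% higher, 2.89% lower in the left). Both calls were lost without the E14.5 embryo (adjusted p = 0.129 for F13a1 and 0.131 for Mrc1), that of F13a1 also without the E17.5 embryo (0.0658) and that of Mrc1 without the E13.5 embryo (0.0817). Cpa3 went the other way, higher in the left ventricle in 3 of 3 embryos, and did not pass (log2 0.64 ± 0.25, adjusted p = 0.248).

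**Figure D3:**
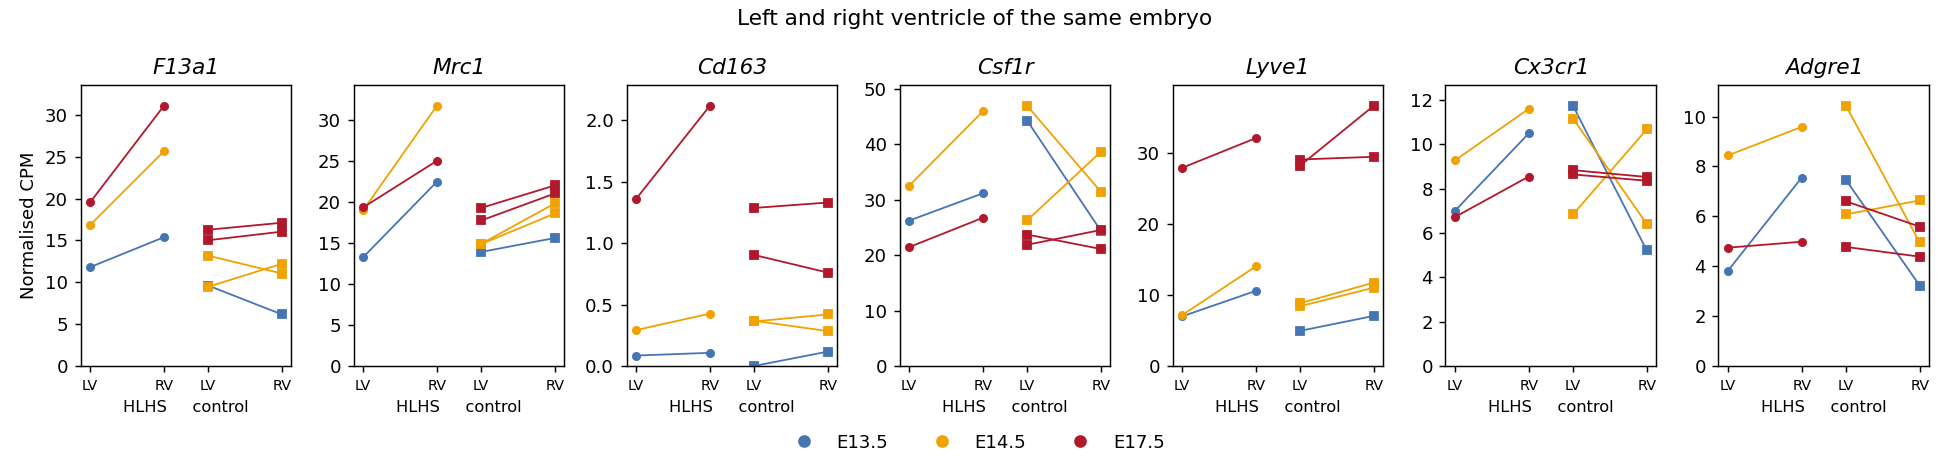
Level of the 7 macrophage genes in the left (LV) and right (RV) ventricle of each embryo, in normalised CPM (y axis), with a line joining the ventricles of 1 embryo; HLHS embryos are circles on the left of each panel, controls are squares on the right, and colours give the embryonic day. All HLHS lines slope up toward the right ventricle, while control lines slope up in 5 of 5 embryos for Mrc1 and Lyve1 and in 1 of 5 for Cx3cr1 and Adgre1.

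In controls, Mrc1 and Lyve1 were lower on the left. Mrc1 was lower in the left ventricle in 5 of 5 embryos, with a log2 change of -0.27 ± 0.06 (adjusted p = 0.0333, edgeR), and Lyve1 likewise in 5 of 5, with -0.32 ± 0.08 (adjusted p = 0.0464). F13a1 was lower in the left in 3 of 5 and did not differ beyond its error (log2 0.04 ± 0.12), and Adgre1 and Cx3cr1 were higher in the left in 4 of 5 without passing (log2 0.48 ± 0.19 and 0.26 ± 0.21). The 2 members called compare with 6.10% of 16238 genes (2.09% higher, 4.01% lower in the left). Of the 28 other macrophage genes tested, 0 were higher and 1 lower in the left of controls. Their median log2 change was 0.28. At an unadjusted p under 0.05, 9 of them were higher and 2 lower in the left (edgeR), so most of that list did not move with Mrc1 and Lyve1. The call of Mrc1 was lost without control embryo 2, 3, 4 or 5 (adjusted p = 0.102, 0.185, 0.0557 and 0.118), that of Lyve1 without control embryo 1, 2, 3 or 5 (0.09, 0.125, 0.167 and 0.173), and both in DESeq2 (0.0902 for Mrc1 and 0.0576 for Lyve1).

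Lyve1 also marks lymphatic vessels. Of 7 lymphatic genes tested 0 were called between the sides in HLHS or in controls in edgeR; at an unadjusted p under 0.05, 1 was higher in the left in HLHS and 4 were lower in the left in controls. Their summed level was 204 to 228 CPM in HLHS LV, 182 to 234 CPM in control LV, 196 to 213 CPM in HLHS RV and 183 to 228 CPM in control RV. Prox1 had the highest counts of these genes, at 106 to 138 CPM per library, so it weighs most in these sums. Kit was lower in the left ventricle of 3 of 3 HLHS embryos and 5 of 5 controls and passed in neither (log2 -0.29 ± 0.12 in HLHS, adjusted p = 0.271; log2 -0.16 ± 0.06 in controls, adjusted p = 0.172, edgeR). Melanocyte genes, which share Kit, were lower on the same side. Of 6 tested, 4 were lower in the left ventricle of controls, with a summed level of 1.81 to 7.03 CPM in control LV and 2.35 to 22.5 CPM in control RV, with Tyrp1 at 0 in 12 of all 16 libraries. Their part in the level of Kit was not tested.

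Epicardial and fibroblast genes also differed between the sides in HLHS, with 1 of 9 higher and 3 lower in the left ventricle, among them Lum (log2 -1.44 ± 0.10) and Pdgfra (log2 -0.75 ± 0.13). Of the 5 neutrophil genes tested in HLHS, 4 were higher in the left ventricle, opposite to the macrophage members. Their part in the side difference of F13a1 and Mrc1 was not tested. Of the 28 other macrophage genes tested between the sides of HLHS hearts, 1 was higher in the left (Lyz2, log2 0.65 ± 0.14) and 1 lower (Dab2, log2 -0.46 ± 0.08), with a median of 0.03, so most of that list did not move with the members.

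In control hearts Lyve1, Cd163, F13a1 and the mast cell protease genes Cpa3 and Cma1 were higher at E17.5 than at E14.5, and Csf1r and Kit were lower. Of the 10 members 5 were higher and 2 lower, against 30.0% of 16823 genes called (15.8% higher, 14.1% lower). Lyve1 was 3.12-fold and Cd163 2.97-fold higher at E17.5 than at E14.5, and Cma1 and Cpa3 were 2.66-fold and 1.88-fold higher. With both ventricles added, Lyve1 was at 29.6 and 32.5 CPM at E17.5 and 10.2 and 9.51 CPM at E14.5, a log2 change of 1.64 ± 0.09 (adjusted p = 0.000381, edgeR, 2 embryos each). Cd163 was at 1.33 and 0.832 CPM at E17.5 and 0.387 and 0.328 CPM at E14.5 (log2 1.57 ± 0.32, adjusted p = 0.0131). F13a1 was at 16.9 and 15.6 CPM at E17.5 and 10.7 and 12.1 CPM at E14.5 (log2 0.49 ± 0.11, adjusted p = 0.0149). Csf1r was at 22.7 and 23.3 CPM at E17.5 and 32.2 and 39.7 CPM at E14.5 (log2 -0.66 ± 0.11, adjusted p = 0.00624). In each of these 4 genes both embryos of E17.5 lay on 1 side of both embryos of E14.5. They were already called in this comparison, so this adds no support, and its share over all genes was not counted.

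The mast cell genes parted at the same time. Cpa3 was at 12.8 and 10.1 CPM at E17.5 and 6.27 and 5.85 CPM at E14.5 (log2 0.91 ± 0.14, adjusted p = 0.005, edgeR). Cma1 was at 9.85 and 7.18 CPM at E17.5 and 3.70 and 2.64 CPM at E14.5 (log2 1.41 ± 0.21, adjusted p = 0.00471). Kit was at 24.9 and 26.9 CPM at E17.5 and 32.9 and 31.8 CPM at E14.5 (log2 -0.33 ± 0.08, adjusted p = 0.019). The proteases were thus higher and the receptor lower at the later stage. Mrc1 (log2 0.25 ± 0.09), Adgre1 (-0.42 ± 0.18) and Cx3cr1 (-0.04 ± 0.10) did not pass (adjusted p = 0.0662, 0.115 and 0.769).

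**Figure D4:**
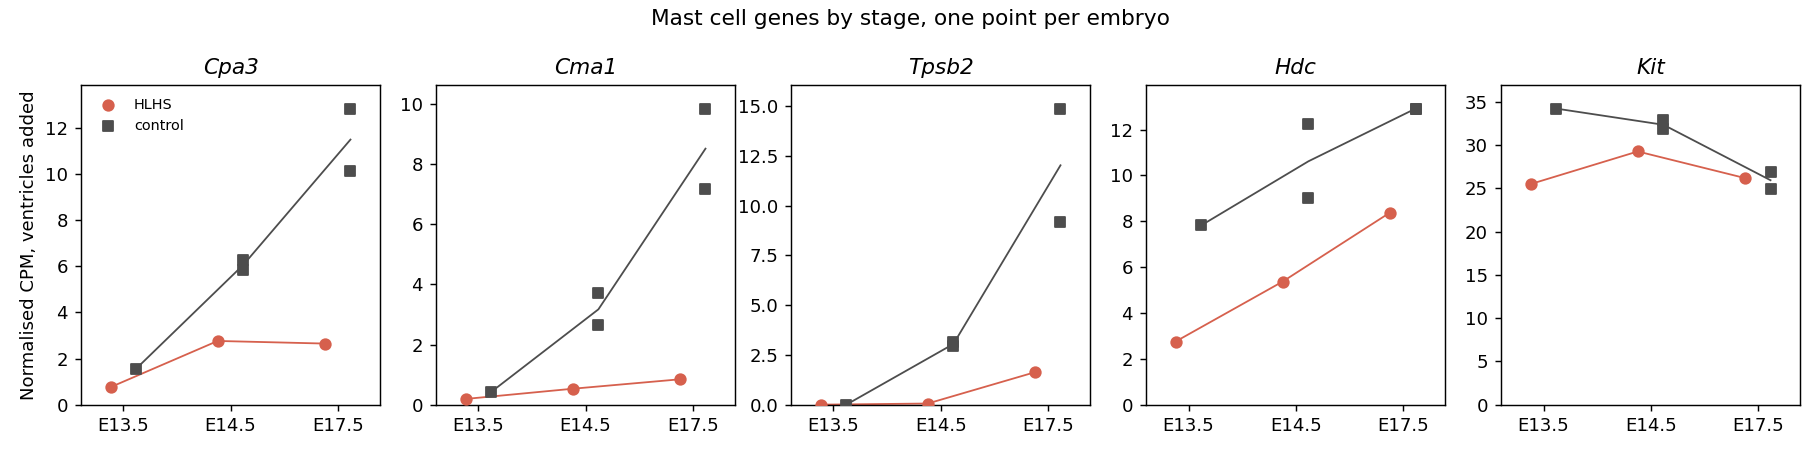
Level of the mast cell genes Cpa3, Cma1, Tpsb2, Hdc and Kit with both ventricles of an embryo added, in normalised CPM (y axis) by embryonic day (x axis); each point is 1 embryo, and lines join the stage means of HLHS (red circles) and control embryos (grey squares). Control embryos reach 12.8 CPM of Cpa3 and 9.85 CPM of Cma1 at E17.5, while HLHS embryos stay at or under 2.76 and 0.843 CPM.

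Of the 15 further mast cell genes tested, 7 were higher and 2 lower, among them Tpsb2, which was at 14.9 and 9.18 CPM at E17.5 and 2.94 and 3.15 CPM at E14.5 (log2 1.96 ± 0.23, adjusted p = 0.0022, edgeR). Of the 28 further macrophage genes tested, 1 was higher and 10 lower, with a median log2 change of -0.52. Those that fell included Ms4a7 (log2 -1.35 ± 0.19) and the lysosomal gene Cd68 (-1.16 ± 0.17), while Irf8, a transcription factor gene of myeloid cells, rose by 0.55 ± 0.13. Lyve1, Cd163 and F13a1 thus rose while 10 of the 28 others fell. The ligand genes Kitl (log2 0.60 ± 0.07) and Csf1 (0.43 ± 0.10) rose as well. Of 7 lymphatic genes tested beside Lyve1, Reln and Mmrn1 rose and Pdpn fell, and their part in the level of Lyve1 was not tested. Stage and litter cannot be told apart here. Without control embryo 4, F13a1 (adjusted p = 0.0529), Cd163 (0.0622) and Kit (0.117) were no longer called, and Kit was also lost without control embryo 2 (0.0543).

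Set against that time course, the HLHS embryos had RNA of Cpa3 and Cma1 below their littermates at every stage. At E13.5, with the ventricles added, this rested on few reads. Cpa3 had 32 in the HLHS embryo and 55 in the control, and Cma1 had 8 and 15. Mcpt4, a further mast cell protease gene, did not pass in the RV (log2 -1.12 ± 0.60, adjusted p = 0.299, edgeR) and was not tested in the LV. At E13.5, with the ventricles added, it was at 0.380 CPM in the HLHS embryo and 0.341 CPM in the control. At E14.5 it was at 0.303 CPM in the HLHS embryo and 1.28 and 0.219 CPM in the controls. At E17.5 it was at 0.196 CPM, under both controls (0.695 and 0.716 CPM). In the RV, the HLHS level of Cpa3 was 0.397, 0.409 and 0.156 of the control mean at the 3 stages in order, and that of Cma1 was 0.609, 0.162 and 0.0571 of it. In the LV the shares were 0.544, 0.527 and 0.309 for Cpa3 and 0.352, 0.171 and 0.147 for Cma1. For both genes the smallest share on each side was that of E17.5, and with 1 HLHS embryo a stage this was not tested. F13a1 was at 2.50, 2.21 and 1.88 times the control mean in the RV and at 1.23, 1.49 and 1.25 times in the LV.

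Likeness of pattern over the 16 libraries, which share embryos, stage and litter, is given as Pearson's r of log2 CPM and describes these libraries only. Cpa3 and Cma1 were the most alike of the members (r = 0.963), followed by Cd163 and Lyve1 (0.90), Cx3cr1 and Adgre1 (0.818), F13a1 and Mrc1 (0.775) and Csf1r and Adgre1 (0.758). Kit was not alike to Cpa3 (-0.132) or Cma1 (-0.133). Of 12544 genes, the most like Cpa3 were Il1rl1 (0.949), Plekhb2, Slc35g2, Osgepl1 and Rhd. The most like Csf1r were Mmp17 (0.902), Tlr2, Cyth4, Lcp1 and Rab32, and the most like F13a1 were Megf9 (0.92), Nucb2, Gskip, Fmo2 and Pls3. F13a1 and Csf1r, both macrophage genes, were unlike each other over these libraries (r = -0.03).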

How the data were processed

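RNA of both ventricles of 8 embryos was read into 16 libraries with a TruSeq RNA kit from total RNA, per the labels' protocols. The authors deposited whole-number counts of reads per gene; per the submitters' processing notes TopHat2 2.0.9, HTSeq 0.5.4p5, Picard and edgeR 3.4.2 were used, with the build mm9. The annotation, the strand setting and what was done with duplicate reads are not stated there or in the labels. Symbols, found for 32919 of 37991 genes, and exon lengths came from GENCODE on another build, so coordinates are given for promoters alone. Totals ran from 17081273 to 28648645 counts per library, and error limits on reads cover counting only. A table of the authors' own comparisons was not used.

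The tests used edgeR 4.0.16 in R 4.3.3: TMM factors, a filter by filterByExpr (at least 10 counts, total at least 15), then glmQLFit and glmQLFTest. P-values were adjusted by Benjamini-Hochberg over all genes tested, with a threshold of 0.05. HLHS fits had stage as a term and side fits the embryo as a block; the embryo numbers in the titles pair the ventricles, and deviations of ventricles of 1 embryo correlated with r of 0.506 to 0.783 in HLHS and 0.548 to 0.849 in controls. No 2 libraries of a group agreed within sampling noise (26 pairs). Each fit was tested on simulated data. Alternatives were DESeq2 1.42.0 and its size factors, no filter, no globin genes, no block and leaving out each embryo. CPM uses TMM factors over all libraries. Likeness used log2(CPM + 1), for genes with a mean log2 CPM of at least 1 when a smaller constant was added.

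All 10 members are given in every comparison, with up to 6 genes of each of 12 lists by smallest p and 5 genes of closest pattern for F13a1, Csf1r and Cpa3; levels of some list genes, and list genes that did not pass, were chosen after their values were seen. Members and lists were chosen with earlier results of these data known. Embryos are separate animals and each stage is 1 litter, so the spread between litters of a stage is not measured.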

Additional observations from a re-analysis of the deposited data

Results flagged for a closer look

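The macrophage gene Csf1r was the 1 member with HLHS values on opposite sides of the control mean in the 2 ventricles in every litter. Against the mean of their littermate controls, HLHS embryos were lower in the left ventricle in 3 of 3 litters and higher in the right in 3 of 3. In the left ventricle at E14.5 the HLHS value lay inside the range of its controls. For Csf1r the difference of the 2 log2 effects (left minus right) was -0.53 ± 0.25 and did not pass (adjusted p = 0.608, edgeR, fitted within embryos). Cx3cr1 and Adgre1 had the same signs of fitted effect, with larger differences of -0.68 ± 0.32 and -0.88 ± 0.32. Neither passed (adjusted p = 0.607 and 0.442, edgeR). Red cell genes went the opposite way, with 7 of 8 tested higher in HLHS LV and 0 of 9 called in HLHS RV, and a median difference of effects of 1.11. Epicardial and fibroblast genes had the same signs as Csf1r, with median log2 changes of -0.27 in HLHS LV and 0.31 in HLHS RV. The part of either list was not tested. Libraries that lie far from the others of their group were looked for in 20 groups of 5 control libraries, and 0 were found, where chance gives about 1.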

How the results depend on the processing

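Over the alternatives that kept all embryos, DESeq2 size factors and leaving out globin genes changed no call or direction of a member. Without the replicate block (stage in the HLHS fits, embryo in the side fits) 1 gene was called in HLHS LV, 0 in HLHS RV, 0 with the ventricles added and 9 for the left minus right effect, and the HLHS calls of Cpa3, Cma1, F13a1 and Mrc1 were lost; the pairing by litter comes from the labels. Without a count filter the calls were 1720 in HLHS RV, 217 for the difference of effects, 1309 and 1570 between the sides of HLHS and control hearts. DESeq2 called 132 genes for the difference of effects, and the right ventricle alone gave 2905 between stages. The cause of these changes was not tested. Leaving out 1 embryo at a time gave 845 to 2309 calls in HLHS LV, 195 to 1518 in HLHS RV, 865 to 2135 with the ventricles added, 0 to 135 for the difference of effects, 270 to 1117 and 486 to 883 between the sides in HLHS and controls, and 3488 to 4531 between stages. Members near 0 changed sign, none of them called: in HLHS LV, Lyve1 was -3.2e-05 in DESeq2, -0.0108 without the filter and -0.19 without the block (-0.14 to 0.13 with an embryo left out), and Cd163 was -0.018 without the block; without it Lyve1 was -0.0246 in HLHS RV and -0.10 with the ventricles added. Between control sides, Cd163 was -0.0681 in DESeq2 and -0.0124 without the block, and with an embryo left out it ran from -0.0715 to 0.0751, F13a1 from -0.0679 to 0.15 and Cpa3 from -0.11 to 0.12. With an embryo left out, Kit in HLHS RV ran from -0.16 to 0.0501, and with the ventricles added Csf1r ran from -0.0889 to 0.0999, Cx3cr1 from -0.11 to 0.12 and Adgre1 from -0.0822 to 0.20; the difference of effects of Cma1 ran from -0.21 to 1.20. F13a1 passed in HLHS LV in DESeq2 (adjusted p = 0.0325) and without the filter (0.0171), and Csf1r passed in HLHS RV in both (0.0494 and 0.0325). The F13a1 call in HLHS RV held without any 1 embryo (adjusted p 0.00101 to 0.0172). With the ventricles added, the Mrc1 call was lost in 6 of 8 such fits (up to 0.284, edgeR). Depth limits Cd163, Cma1 before E14.5 and the rarer mast cell genes, which hold few reads per library.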

Other observations

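Blood vessel genes were lower in HLHS in part: of 8 tested, 2 were lower in HLHS LV and 1 in HLHS RV, 0 were higher, and their summed level was 967 to 1318 CPM in HLHS LV, 1251 to 1404 CPM in control LV, 1151 to 1387 CPM in HLHS RV and 1339 to 1436 CPM in control RV. Mcpt4, a connective-tissue mast cell protease gene, was lower in the left than in the right ventricle of controls (log2 -2.26 ± 0.34, adjusted p = 0.00398, edgeR), and so was Hdc (-0.45 ± 0.10, adjusted p = 0.0244), while Cpa3 did not differ between the sides of controls beyond its error (-0.03 ± 0.14). Cx3cl1, which encodes the ligand of the Cx3cr1 product, was higher in the left ventricle in HLHS (0.63 ± 0.13, adjusted p = 0.0376) and in controls (0.47 ± 0.08, adjusted p = 0.00621).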
